A study of Canis lupus familiaris with 12 samples.

Results

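ACKR3 and 7 other genes of the chemokine axis were followed in RNASeq libraries of MDCKII cells that lacked CGN, CGNL1, or both. ACKR3 was chosen by its higher level in all 3 KO lines than in WT cells, and CXCR4, CXCL12, CXCL8, CXCL16, CX3CL1, ARRB1, and ARRB2 were added as partners, related ligands, and effectors. Of these 8 genes, 6 were among the 13672 genes of the deposited table, and CXCL12 and ARRB1, for which no row carried the symbol or an older one, were not analysed here. The libraries came from 4 genotypes with 3 libraries each: WT cells, CGN-KO cells of line 1G8, CGNL1-KO cells of line 22, and cells KO for both genes (double-KO) of line 21D3. MDCKII is an epithelial cell line from dog kidney, the KO lines were made by CRISPR/Cas9 editing, and the cells received no treatment. Each KO genotype was represented by 1 line, so the loss of a gene and the history of a line cannot be told apart here.

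Chemokines are small secreted proteins that guide migrating cells through G protein–coupled receptors. CXCL12 signals through CXCR4, which couples to Gi proteins, and it also binds ACKR3, an atypical receptor that recruits β-arrestins, does not couple to G proteins in the usual way, and carries its ligands into the cell for degradation. ACKR3 thereby lowers the CXCL12 that is left for CXCR4. CXCL8 attracts neutrophils through other receptors, CXCL16 and CX3CL1 are made as membrane-anchored proteins that proteases can shed, and ARRB1 and ARRB2 encode the β-arrestins. In kidney epithelium these genes are studied in development and inflammation.

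The libraries held between 16837532 and 30086076 recovered reads of the listed genes. Levels are given as CPM, the counts of a gene relative to the reads of its library, with the SD over the 3 libraries of a genotype. No correction for transcript length was made, so levels are compared between genotypes and not between genes. The mean CGN level was 214 CPM in WT, 50.6 CPM in CGN-KO, and 42.2 CPM in double-KO cells, and the mean CGNL1 level was 9.74 CPM in WT, 2.34 CPM in CGNL1-KO, and 1.49 CPM in double-KO cells, as the labels have it. CGNL1 was also lower in CGN-KO than in WT cells (5.99 CPM, adjusted p = 0.0201 by limma), with all 3 libraries below WT. All 10 epithelial markers sought were listed, among them CDH1 and EPCAM, with a summed level between 7600 and 8400 CPM in each library. The leukocyte marker PTPRC was not listed, of 7 endothelial markers 2 were listed (KDR and VWF), and of 8 fibroblast markers 1 was listed (PDGFRA).

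Differences between genotypes were tested by limma on log2(CPM + 1) over 12650 genes (those above 1 CPM in 3 or more libraries), and every adjusted p is from this fit unless another tool is named. Calls required both an adjusted p below 0.05 and a change of at least 2-fold. By limma the latter is a difference of at least 1 in log2(CPM + 1), a scale that understates the fold change of low genes. The 5 members other than ACKR3 were tested against WT. In CGN-KO cells CX3CL1 rose and CXCL8 fell at an adjusted p below 0.05 (1 of 5 in each direction), a criterion that 11.2% of all genes tested met as higher and 7.87% as lower. In CGNL1-KO cells CX3CL1 and CXCL8 rose (2 of 5) and 0 of 5 fell by limma, edgeR, and DESeq2 (2 of 5 had an unadjusted p below 0.05), against 6.81% higher and 3.49% lower among all genes. In double-KO cells CX3CL1 rose (1 of 5) and CXCR4 and CXCL8 fell (2 of 5), against 14.8% higher and 11.5% lower among all genes.

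At least 2-fold changes against WT were rarer. In CGN-KO cells 0.98% of all genes were called higher and 0.332% lower, and in CGNL1-KO cells these shares were 0.379% and 0.237%. In both lines 0 of the 5 members met this criterion by limma, edgeR, and DESeq2, although by limma 3 (CGN-KO) and 2 (CGNL1-KO) had an unadjusted p below 0.05. In double-KO cells 0.767% of all genes were called higher and 0.64% lower, and 1 of the 5 members, CXCL8, was called lower by limma. With edgeR or DESeq2 on the recovered reads CXCR4 was called lower as well (2 of 5), where these tools called 328 and 326 of all genes in either direction. These 3 comparisons share the WT libraries. In RNA of a whole culture, fewer cells that express a gene and less of its RNA per cell cannot be told apart.

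The ACKR3 level was higher in each of the 9 KO libraries than in each WT library. It was 7.78, 6.62, and 8.98 CPM in the 3 WT libraries, 108, 126, and 117 CPM in CGN-KO, 35.7, 31.1, and 34.2 CPM in CGNL1-KO, and 82.5, 87.7, and 70.2 CPM in double-KO cells. These values rest on 120 to 188 reads per library in WT, 1982 to 3289 in CGN-KO, 615 to 690 in CGNL1-KO, and 1449 to 2161 in double-KO cells. The means were 7.80 ± 1.18, 117 ± 8.56, 33.7 ± 2.33, and 80.2 ± 9.01 CPM (SD, n = 3 each), and the ratio to the WT mean was 15.0 for the CGN-KO line, 4.32 for the CGNL1-KO line, and 10.3 for the double-KO line. On the log2(CPM + 1) scale the differences from WT were 3.75, 1.99, and 3.21. ACKR3 had the largest rise of all 12650 genes in CGN-KO and double-KO cells and the second largest (rank 2) in CGNL1-KO cells. Because ACKR3 was picked by these same differences, they are given as a description with no test. The fibroblast marker PDGFRA, the 1 of 8 that was listed, was also highest in CGN-KO cells. There it ranged from 5.88 to 11.1 CPM against 2.7 to 5.48 CPM in WT. It passed the test there by limma (0.81 on the log2 scale) and edgeR but not by DESeq2. It ranged from 3.75 to 9.81 CPM in CGNL1-KO and from 4.94 to 7 CPM in double-KO cells, where it did not pass, COL1A1 and COL1A2 were not listed, and its part in the ACKR3 levels was not tested.

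**Figure D1:**
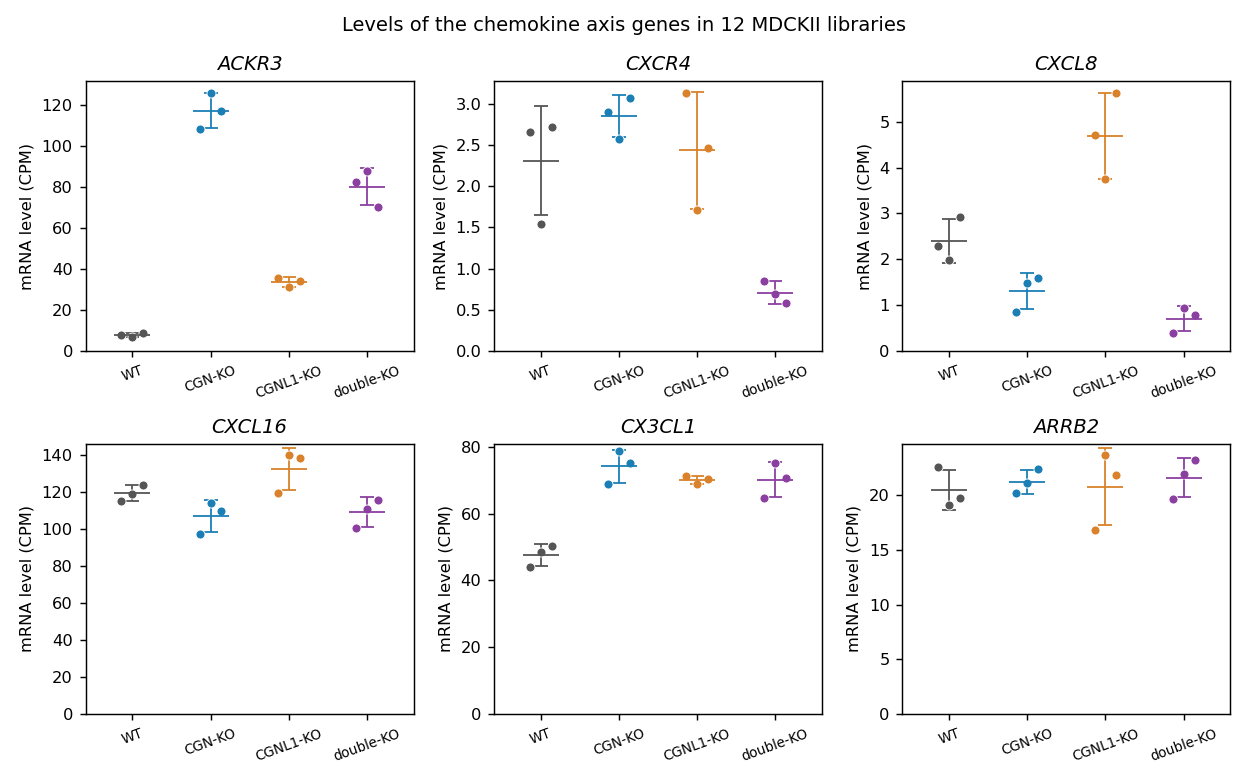
Level (CPM, linear axes from 0) of the 6 listed members in 12 MDCKII libraries, grouped by genotype on the x axis. Points are libraries, horizontal lines are means, and bars are SD over 3 libraries. The ACKR3 points do not overlap between any of the 4 genotypes, the CXCR4 points of double-KO cells lie below all others, the CX3CL1 points of WT cells lie below all others, and the ARRB2 points overlap throughout.

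The size of the ACKR3 difference was not the same in the 3 KO lines. The order of the levels was WT, CGNL1-KO, double-KO, and CGN-KO, and no library of one genotype reached the range of the next. The choice of ACKR3 did not use differences between KO lines, which were tested directly. ACKR3 was higher in CGN-KO than in CGNL1-KO cells by 1.77 ± 0.099 (log2, SE; adjusted p = 1.16e-08), and it was higher in double-KO than in CGNL1-KO cells by 1.22 ± 0.099 (adjusted p = 7.76e-07). It was lower in double-KO than in CGN-KO cells by a smaller amount (-0.54, 95% confidence interval -0.75 to -0.33, adjusted p = 0.00282), so the line lacking both proteins did not have the highest ACKR3 level. The shares of all genes called at least 2-fold in these 3 contrasts were 0.648% for CGN-KO against CGNL1-KO, 0.696% for double-KO against CGNL1-KO, and 0.356% for double-KO against CGN-KO. At any fold they were 5.19%, 14.4%, and 8.84%.

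CXCR4, the signalling receptor for CXCL12, was measured at low levels and was lowest in double-KO cells. Its level was 2.65, 1.55, and 2.72 CPM in WT, 2.90, 2.57, and 3.07 CPM in CGN-KO, 3.13, 1.71, and 2.46 CPM in CGNL1-KO, and 0.853, 0.690, and 0.581 CPM in double-KO cells. The double-KO libraries lay below all 9 others, and the other 3 genotypes overlapped. The double-KO values rest on 12 to 17 reads per library and the WT values on 28 to 57 reads, so the counts behind this gene are low. The mean fell from 2.31 ± 0.660 CPM in WT to 0.708 ± 0.137 CPM in double-KO cells, a ratio of 0.307 (log2 difference -0.94, 95% confidence interval -1.30 to -0.57, adjusted p = 0.000724). The log2(CPM + 1) scale understates the change of so low a gene, and edgeR on the recovered reads gave -1.71 (adjusted p = 0.000505). CXCR4 was also lower in double-KO than in CGN-KO cells (-1.17, adjusted p = 0.000526). This was called at this pseudocount and fell short of 2-fold on the log2 scale with a pseudocount of 2 (-0.84). The difference between double-KO and CGNL1-KO cells was -0.99 (adjusted p = 0.00102). CGN-KO and CGNL1-KO cells did not pass the test against WT (0.24, adjusted p = 0.361, and 0.06, adjusted p = 0.891), and the 95% confidence intervals allow values from -0.12 to 0.60 and from -0.31 to 0.42.

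ACKR3 and CXCR4, which both bind CXCL12, thus lay on opposite sides of their WT levels in double-KO cells. The ratio of ACKR3 to CXCR4 CPM within a library, in which transcript length is the same factor throughout, had a mean of 3.51 ± 0.70 for WT cells, 41.5 ± 6.45 for CGN-KO cells, 14.5 ± 3.42 for CGNL1-KO cells, and 115 ± 16 for double-KO cells (SD, n = 3). The genotypes did not overlap in this ratio, which holds the difference by which ACKR3 was chosen and was not tested. Of 23 chemokine receptor genes sought, ACKR3 and CXCR4 were the only 2 listed.

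CXCL8, the neutrophil chemoattractant, moved in opposite directions in CGNL1-KO and double-KO cells. Its level was 2.30, 1.99, and 2.92 CPM in WT, 0.857, 1.48, and 1.59 CPM in CGN-KO, 4.70, 3.75, and 5.62 CPM in CGNL1-KO, and 0.398, 0.934, and 0.775 CPM in double-KO cells. All CGNL1-KO libraries were above all WT libraries, and all CGN-KO and double-KO libraries were below them, whereas CGN-KO and double-KO libraries overlapped. The WT values rest on 36 to 61 reads per library and the double-KO values on 7 to 23 reads. The counts were 26 to 30 reads in CGN-KO and 81 to 105 in CGNL1-KO libraries, so they are low for this gene. The mean rose 1.95-fold in CGNL1-KO cells (0.74 on the log2 scale, adjusted p = 0.0109) and was 0.293 of WT in double-KO cells (-1.002, adjusted p = 0.000475). The fall to 0.546 of WT in CGN-KO cells was smaller (-0.56, adjusted p = 0.0314). The levels in order were double-KO, CGN-KO, WT, and CGNL1-KO, of which the first pair did not pass the test (-0.44, 95% confidence interval -0.81 to -0.07, adjusted p = 0.139).

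Between KO lines CXCL8 was lower in CGN-KO than in CGNL1-KO cells (-1.30, adjusted p = 0.000173) and lower in double-KO than in CGNL1-KO cells (-1.74, adjusted p = 6.02e-06), both called. The 2-fold call in double-KO cells against WT lay at the threshold. It was lost with a pseudocount of 2 (-0.70), without WT replicate 3 (-0.90), or without double-KO replicate 2 (-0.87), while edgeR gave -1.73 (adjusted p = 0.000724). The rise in CGNL1-KO cells did not pass without WT replicate 2 (adjusted p = 0.0607) or without CGNL1-KO replicate 3 (adjusted p = 0.0662), and the fall in CGN-KO cells did not pass without WT replicate 1 (adjusted p = 0.0593), without WT replicate 3 (adjusted p = 0.126), or without CGN-KO replicate 1 (adjusted p = 0.131). The listed endothelial markers KDR and VWF, 2 of 7 sought, summed to 1.47 to 2.04 CPM in WT, 1.38 to 1.78 in CGN-KO, 2.51 to 2.98 in CGNL1-KO, and 0.69 to 0.853 CPM in double-KO cells. This sum was thus above WT in CGNL1-KO and below WT in double-KO cells like CXCL8, and it overlapped with WT in CGN-KO cells, where KDR did not pass the test (adjusted p = 0.0964). The KDR values rest on 19 to 32 reads per library in WT, 33 to 53 in CGNL1-KO, and 2 to 6 in double-KO cells. PECAM1 and CDH5 were not listed, and the part of such cells in the result was not tested.

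CX3CL1, or fractalkine, was higher in every KO library than in every WT library. Its level was 44.0, 48.4, and 50.2 CPM in WT, 68.9, 78.7, and 75.0 CPM in CGN-KO, 71.2, 68.8, and 70.3 CPM in CGNL1-KO, and 64.6, 75.2, and 70.6 CPM in double-KO cells. The means rose from 47.5 ± 3.22 CPM to 74.2 ± 4.96, 70.1 ± 1.21, and 70.1 ± 5.32 CPM. The ratios to WT were 1.56, 1.48, and 1.48 (log2 differences 0.63, 0.55, and 0.55, with adjusted p = 7.14e-06, 5.44e-05, and 2.34e-05). The KO lines did not differ from each other by this test (adjusted p = 0.618, 0.542, and 0.988), and the 95% confidence intervals of the 3 differences lay between -0.23 and 0.23. The change was thus below 2-fold in each line.

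CXCL16, a membrane-anchored ligand like CX3CL1, differed little. Its level was 115, 119, and 124 CPM in WT, 97.1, 114, and 109.9 CPM in CGN-KO, 119, 139.7, and 138 CPM in CGNL1-KO, and 100.2, 111, and 116 CPM in double-KO cells. The CGN-KO libraries lay below the WT libraries, and the libraries of the other 2 KO lines overlapped with WT. The test against WT was not passed in any line (-0.16, adjusted p = 0.149; 0.15, adjusted p = 0.262; -0.13, adjusted p = 0.208). CXCL16 was lower in CGN-KO (-0.31, adjusted p = 0.0231) and in double-KO cells (-0.28, adjusted p = 0.0186) than in CGNL1-KO cells. Both small differences lost the test in 4 of the fits that left out 1 library, with adjusted p up to 0.13 without CGNL1-KO replicate 3 for the first and up to 0.105 without double-KO replicate 2 for the second.

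ARRB2, which encodes β-arrestin 2, did not differ past the test between any of the 4 genotypes. Its level was 22.6, 19.1, and 19.7 CPM in WT, 20.2, 21.1, and 22.4 CPM in CGN-KO, 16.8, 23.7, and 21.9 CPM in CGNL1-KO, and 19.7, 22, and 23.2 CPM in double-KO cells. The log2 differences from WT were 0.05, 0.01, and 0.08 (adjusted p = 0.775, 0.964, and 0.647), and their 95% confidence intervals lay between -0.22 and 0.31. In the test across the 4 genotypes, which 29.9% of all genes passed, ARRB2 did not pass (adjusted p = 0.911), and the other 4 members tested did (CXCL8 8.58e-06, CX3CL1 1.16e-05, CXCR4 0.000275, and CXCL16 0.0152 as adjusted p).

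**Figure D2:**
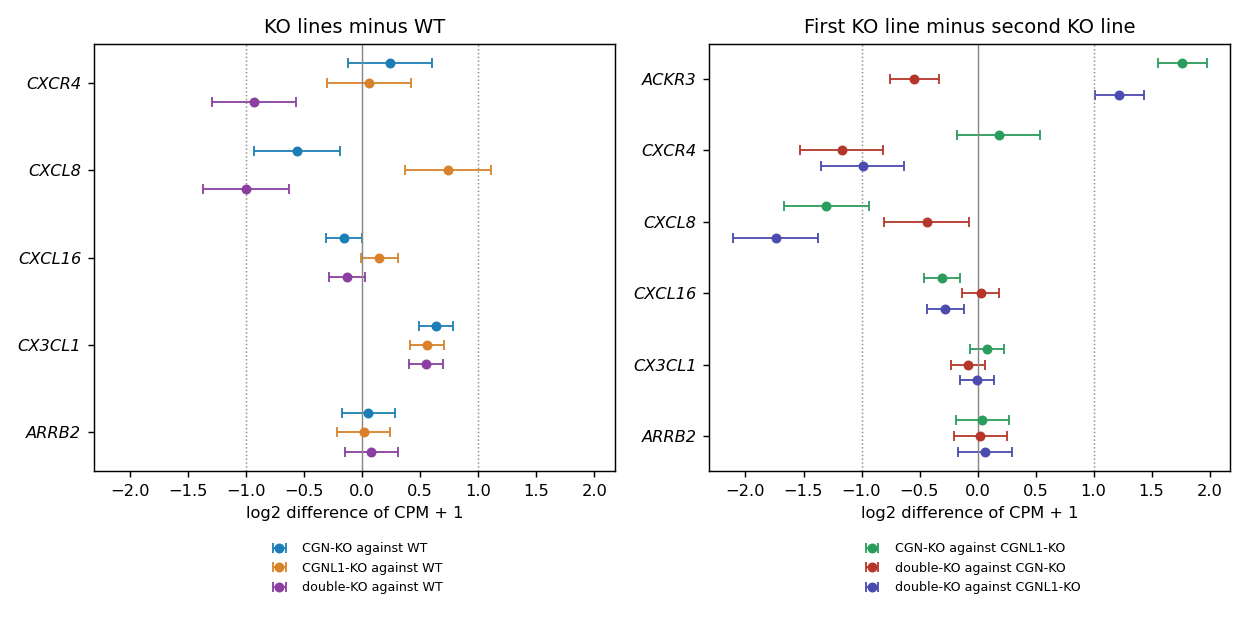
Difference in log2(CPM + 1) of each member between KO lines and WT (left) and between KO lines (right), with 95% confidence intervals from limma. Dotted lines mark 2-fold, and ACKR3 is left out on the left because it was chosen on those contrasts. ACKR3 differs between each pair of KO lines, CXCR4 is lowest in double-KO cells, CXCL8 is highest in CGNL1-KO cells, CX3CL1 is higher in the 3 KO lines by 0.55 to 0.63, and the ARRB2 intervals all include 0.

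The other genes of the arrestin step changed by less than 2-fold. Of 11 listed arrestins, α-arrestins, and receptor kinases (12 sought), 4 rose and 1 fell in CGN-KO, 1 rose and 1 fell in CGNL1-KO, and 5 rose and 1 fell in double-KO cells at an adjusted p below 0.05. Among all genes 11.2%, 6.81%, and 14.8% rose in the 3 lines and 7.87%, 3.49%, and 11.5% fell. The median log2 difference of the list was 0.11, 0.04, and 0.08 in the 3 lines, beside medians of all genes within 0.004 of 0. At 2-fold or more 0 of 11 were called in each line by limma, edgeR, and DESeq2, while 5, 4, and 6 had an unadjusted p below 0.05 by limma. GRK3, a kinase that phosphorylates active G protein–coupled receptors, rose from 30.6 CPM in WT to 39.1, 38.4, and 41.1 CPM in CGN-KO, CGNL1-KO, and double-KO cells (adjusted p = 0.00151, 0.0047, and 0.00023). ARRDC3, an α-arrestin that acts in receptor trafficking, fell from 35.1 CPM to 27.0, 24.3, and 25.1 CPM (adjusted p = 0.00361, 0.000392, and 0.000384). GRK3, ARRDC3, and other genes listed in the methods were picked for naming after their values were seen.

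A further list held 16 tested genes of RGS proteins and of Gi proteins, the latter those through which CXCR4 and other chemokine receptors signal. Of these 16, 4 rose and 2 fell in CGN-KO, 1 rose in CGNL1-KO, and 4 rose and 2 fell in double-KO cells. Against the shares of all genes (11.2%, 6.81%, and 14.8% higher, and 7.87%, 3.49%, and 11.5% lower), the single rise in CGNL1-KO cells and the 2 falls in double-KO cells are near the background. GNG2, a G protein γ subunit, rose from 17.8 CPM in WT to 25.7, 24.4, and 24.4 CPM in the 3 lines (adjusted p = 0.00142, 0.00883, and 0.00318). GNAZ, an α subunit of the Gi family, rose from 0.765 CPM to 1.90 CPM in CGN-KO (adjusted p = 0.00253) and 2.04 CPM in double-KO cells (adjusted p = 0.00107), and was 1.29 CPM in CGNL1-KO cells (adjusted p = 0.13). Its WT values rest on 10 to 23 reads per library. At 2-fold or more limma called 0 of 16 in each line, while 10, 3, and 12 had an unadjusted p below 0.05. With edgeR and DESeq2 alike, 1 was called higher in CGN-KO and 1 higher in double-KO cells. Of all genes these tools called 307 and 305 in CGN-KO and 328 and 326 in double-KO cells, in either direction. The genes that fell are not named here. The list's medians were 0.03, 0.02, and 0.12 on the log2 scale.

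Among 22 genes of receptor endocytosis and sorting, the route by which ACKR3 carries ligands inward, 4 rose and 1 fell in CGN-KO, 3 rose in CGNL1-KO, and 7 rose and 2 fell in double-KO cells. The shares of all genes were 11.2%, 6.81%, and 14.8% higher and 7.87%, 3.49%, and 11.5% lower, so the falls did not exceed the background, and 10, 4, and 12 of the 22 had an unadjusted p below 0.05. CLTC, the clathrin heavy chain, rose from 695 CPM in WT to 804, 885, and 874 CPM (adjusted p = 0.0146, 0.000607, and 0.000386). AP2B1, a subunit of the AP-2 adaptor, rose from 341 CPM to 433, 455, and 414 CPM (adjusted p = 0.000146, 4.13e-05, and 0.000641). DNM2, the GTPase that severs endocytic vesicles, rose from 244 CPM to 288, 278, and 275.5 CPM (adjusted p = 0.00235, 0.0185, and 0.0134). The medians of the list were -0.04, 0.04, and 0.01 on the log2 scale. The CLTC rise in CGN-KO cells and the DNM2 rise in CGNL1-KO and double-KO cells did not pass in fits that left out 1 library, with adjusted p up to 0.0651 for CLTC without CGN-KO replicate 2 and up to 0.0655 for DNM2 without double-KO replicate 3.

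Of the other proposed ACKR3 ligands and the adrenomedullin receptor (9 genes sought), ADM and ADM2 were listed. ADM, which encodes the peptide adrenomedullin, rose from 1.54 ± 0.06 CPM in WT to 2.80 ± 0.68 CPM in double-KO cells (0.57, adjusted p = 0.0248). Its level of 2.33 CPM in CGN-KO and 2.25 CPM in CGNL1-KO cells did not pass the test (adjusted p = 0.168 and 0.267). In the limma test across the 4 genotypes ADM did not pass (adjusted p = 0.098). Its values rest on 26 to 31 reads per library in WT and 40 to 88 in double-KO cells. ADM2 did not pass against WT in any line, so 1 of the 2 listed genes rose in double-KO cells, against 14.8% of all genes.

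Among the other chemokine ligands CCL17 rose in the 3 KO lines, and CCL2, CCL7, CCL20, and CXCL10 were lowest in double-KO cells. Of 40 ligand genes sought 14 were listed and 13 were tested, CXCL8, CXCL16, and CX3CL1 among them. In CGN-KO cells 4 rose and 3 fell (11.2% and 7.87% of all genes). Of these, CCL17 and CCL24 were called (2 higher, against 0.98% of all genes). In CGNL1-KO cells 5 rose (6.81% of all genes). Of these, CCL17 and CCL20 were called (2 higher, against 0.379% of all genes). In double-KO cells 2 rose and 5 fell (14.8% and 11.5% of all genes). Of these, CCL17 was called higher (1, against 0.767% of all genes). CXCL8, CCL2, CCL7, and CCL20 were called lower there (4, against 0.64% of all genes). With edgeR and DESeq2 alike, 3 were called higher in CGN-KO, 3 higher in CGNL1-KO, and 1 higher and 5 lower in double-KO cells. Of all 12650 genes edgeR called 307, 157, and 328 in these lines and DESeq2 305, 157, and 326, in either direction. The list's medians were 0.09, 0.43, and -0.13 on the log2 scale.

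CCL17, a ligand of CCR4 that attracts T cells, had the largest difference from WT on the log2(CPM + 1) scale among these ligands in CGN-KO and CGNL1-KO cells. Its level was 33.9, 32.1, and 36.6 CPM in WT, 176, 191, and 190.5 CPM in CGN-KO, 77.4, 73.7, and 71.9 CPM in CGNL1-KO, and 92.0, 103, and 99.0 CPM in double-KO cells. Like ACKR3, it was ordered WT, CGNL1-KO, double-KO, and CGN-KO without overlap. The log2 differences from WT were 2.41, 1.10, and 1.49 (adjusted p = 3.39e-13, 1.56e-08, and 1.71e-10), and CGN-KO exceeded CGNL1-KO cells by 1.31 (adjusted p = 1.59e-09). Double-KO cells were below CGN-KO cells by -0.92 (adjusted p = 7.27e-07) and above CGNL1-KO cells by 0.39 (adjusted p = 0.00054).

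CCL2 and CCL7, which attract monocytes, were lowest in double-KO cells. CCL2 fell from 37.9 ± 2.06 CPM in WT to 21.9 ± 1.16 CPM in CGN-KO (-0.76, adjusted p = 0.000424) and 7.74 ± 1.80 CPM in double-KO cells (-2.17, adjusted p = 5.91e-09), and was 45.0 ± 6.87 CPM in CGNL1-KO cells (0.23, adjusted p = 0.298). CCL7 fell from 4.72 ± 0.39 CPM to 3.02 ± 0.472 CPM in CGN-KO (-0.52, adjusted p = 0.00714) and 0.602 ± 0.111 CPM in double-KO cells (-1.84, adjusted p = 2.69e-08), and was 5.61 ± 0.52 CPM in CGNL1-KO cells (0.21, adjusted p = 0.347). For both genes the double-KO libraries lay below all CGN-KO libraries, and these in turn below all WT libraries. The CCL7 values rest on 85 to 91 reads per library in WT, 42 to 102 in CGN-KO, and 9 to 15 in double-KO cells.

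CCL20, a ligand of CCR6, was 11.1, 11.0, and 11.0 CPM in WT, 31.3, 17.5, and 24.7 CPM in CGNL1-KO, and 3.07, 4.14, and 4.17 CPM in double-KO cells. It rose 2.22-fold in CGNL1-KO (adjusted p = 0.000233) and fell by 1.34 on the log2 scale in double-KO cells (adjusted p = 8.04e-06), with 9.79 CPM in CGN-KO cells (adjusted p = 0.505). The rise in CGNL1-KO cells fell short of 2-fold on the log2(CPM + 1) scale without CGNL1-KO replicate 1 (0.86). CXCL10, an interferon-induced ligand of CXCR3, had the same order at 1.82 CPM in WT, 3.84 CPM in CGNL1-KO (adjusted p = 0.00748), and 0.703 CPM in double-KO cells (adjusted p = 0.00352). The CXCL10 values rest on 28 to 43 reads per library in WT, 54 to 91 in CGNL1-KO, and 11 to 17 in double-KO cells. CCL24 rose from 0.269 CPM to 1.61 CPM in CGN-KO cells (1.02, adjusted p = 0.000528), on 3 to 6 reads per library in WT and 20 to 70 in CGN-KO. On the log2(CPM + 1) scale this rise fell short of 2-fold without CGN-KO replicate 1 (0.83) or WT replicate 2 (0.96). Reads shared between related chemokine genes were not examined.

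**Figure D3:**
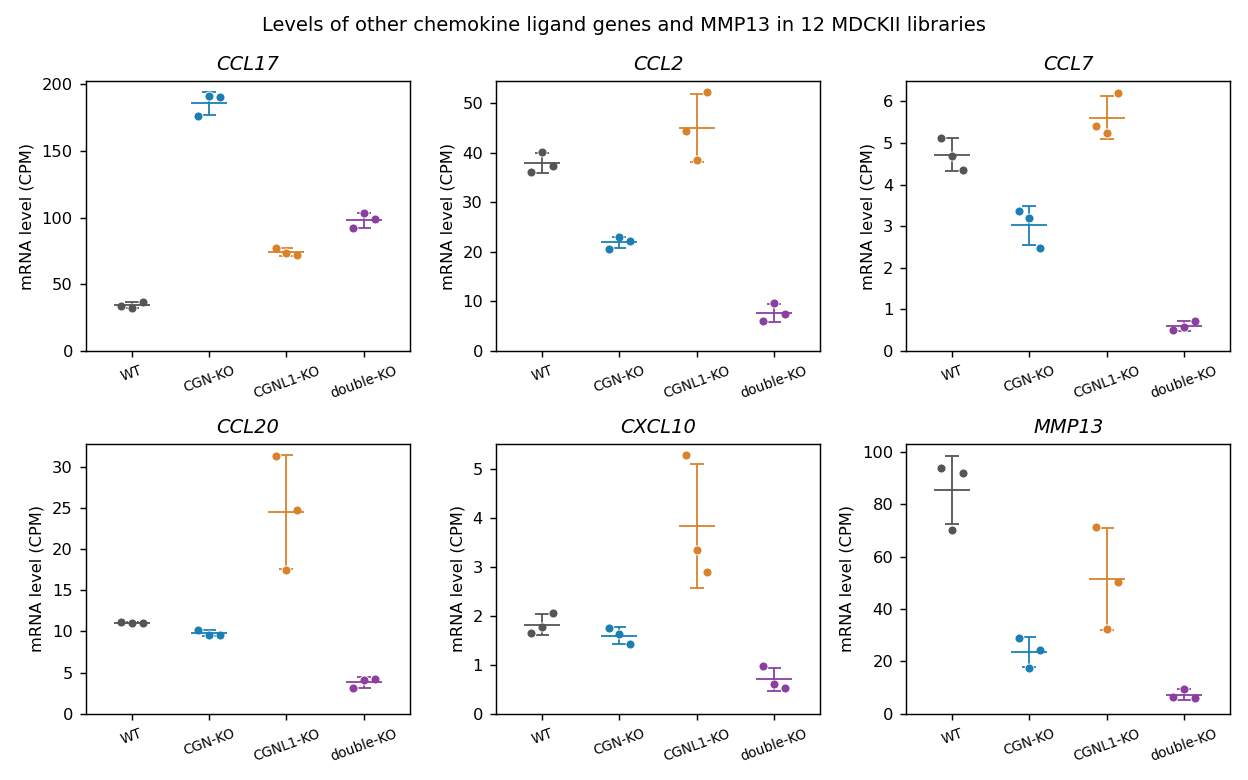
Level (CPM, linear axes from 0) of 5 further chemokine ligand genes and of MMP13 in 12 MDCKII libraries, grouped by genotype on the x axis. Points are libraries, horizontal lines are means, and bars are SD over 3 libraries. CCL17 is higher in the 3 KO lines, whereas CCL2, CCL7, CCL20, CXCL10, and MMP13 are lowest in double-KO cells, at means of 7.74, 0.602, 3.79, 0.703, and 7.29 CPM.

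Of 14 proteases and inhibitors that process or shed chemokines, 8 were listed and tested. At an adjusted p below 0.05, 3 rose and 2 fell in CGN-KO, 2 rose and 2 fell in CGNL1-KO, and 1 rose and 3 fell in double-KO cells. Among all genes 11.2%, 6.81%, and 14.8% rose in the 3 lines and 7.87%, 3.49%, and 11.5% fell, so the single rise in double-KO cells is near the background. The list's medians were 0.14, 0.24, and 0.04 on the log2 scale. MMP13, a collagenase that can also cleave chemokines, was 93.8, 70.4, and 92.2 CPM in WT, 29.1, 17.6, and 24.5 CPM in CGN-KO, 71.5, 32.5, and 50.3 CPM in CGNL1-KO, and 6.20, 9.62, and 6.05 CPM in double-KO cells. It fell by 1.82 on the log2 scale in CGN-KO (adjusted p = 3.53e-05) and further in double-KO cells (-3.40, adjusted p = 3.42e-08). The difference of -0.78 in CGNL1-KO cells (adjusted p = 0.0414) did not pass without CGNL1-KO replicate 2 (-0.49, adjusted p = 0.158) or in 3 other fits that left out WT replicate 1, WT replicate 3, or CGNL1-KO replicate 3, nor with DESeq2 (adjusted p = 0.137). TIMP1, an inhibitor of such proteases, fell from 22.1 ± 0.84 CPM in WT to 5.94 ± 1.29, 6.19 ± 0.545, and 6.37 ± 0.78 CPM in CGN-KO, CGNL1-KO, and double-KO cells (-1.75, -1.69, and -1.65, with adjusted p = 8.20e-08, 2.59e-07, and 1.41e-07). The KO lines did not differ in TIMP1 by this test (adjusted p = 0.848, 0.705, and 0.902), with 95% confidence intervals between -0.34 and 0.37.

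MMP9, a gelatinase, was highest in CGNL1-KO and lowest in double-KO cells with a wide spread. It was 1.77, 1.82, and 2.53 CPM in WT, 1.91, 1.28, and 1.06 CPM in CGN-KO (overlapping with WT, adjusted p = 0.429), 12.8, 3.57, and 6.74 CPM in CGNL1-KO, and 0.569, 0.528, and 0.339 CPM in double-KO cells. The MMP9 values rest on 30 to 53 reads per library in WT, 79 to 220 in CGNL1-KO, and 7 to 13 in double-KO cells. On the log2(CPM + 1) scale the rise in CGNL1-KO (1.38, adjusted p = 0.00327) was below 2-fold without CGNL1-KO replicate 1 (0.98). On the same scale the fall in double-KO cells (-1.03, adjusted p = 0.01) was below 2-fold without WT replicate 3 (-0.92) or without the unnumbered double-KO library (-0.97). DPP4, a peptidase that truncates CXCL12, was low in WT cells (0.118, 0.497, and 0.0956 CPM, from 2 to 9 reads per library). It was 1.31, 2.03, and 2.18 CPM in double-KO cells (adjusted p = 0.000751). On the log2 scale this call was below 2-fold with a pseudocount of 2 (0.78). The DPP4 level was 0.626, 1.53, and 2.30 CPM in CGN-KO cells (0.96, adjusted p = 0.00538) and 0.488 CPM on average in CGNL1-KO cells (adjusted p = 0.508).

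CXCL8, CCL2, CCL20, and CXCL10 are known NF-κB target genes, and 18 of 24 other factors and targets of this pathway were tested. In CGN-KO cells 1 rose and 3 fell, in CGNL1-KO cells 7 rose and 0 fell (8 had an unadjusted p below 0.05, and edgeR and DESeq2 also counted 0 falls), and in double-KO cells 4 rose and 7 fell. Of all genes 11.2%, 6.81%, and 14.8% rose and 7.87%, 3.49%, and 11.5% fell. None of the 18 was called at 2-fold by limma (6, 8, and 11 had an unadjusted p below 0.05), and edgeR and DESeq2 each called 1 lower in CGN-KO cells. In that line these tools called 307 and 305 of all genes, in either direction. The medians of the list were 0.00, 0.18, and -0.10 on the log2 scale. In double-KO against CGNL1-KO cells 2 rose and 11 fell, with a median of -0.37, whereas 14.4% of all genes differed in either direction.

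NFKBIA, which encodes the NF-κB inhibitor IκBα and is itself a target, was 75.9 ± 3.89 CPM in WT, 66.9 ± 2.83 CPM in CGN-KO (adjusted p = 0.0597), 89.5 ± 5.92 CPM in CGNL1-KO (0.23, adjusted p = 0.0272), and 43.5 ± 2.11 CPM in double-KO cells (-0.79, adjusted p = 2.27e-07). The rise in CGNL1-KO cells did not pass without WT replicate 2 (adjusted p = 0.137), WT replicate 3, CGNL1-KO replicate 1, or CGNL1-KO replicate 3, or with libraries scaled to their totals (adjusted p = 0.0627). BIRC3, an inhibitor of apoptosis, fell from 83.5 CPM to 41.5 CPM in CGN-KO (adjusted p = 1.15e-06) and 45.3 CPM in double-KO cells (adjusted p = 3.85e-06), and was 94.7 CPM in CGNL1-KO cells (adjusted p = 0.255). TNFAIP3, which encodes the feedback inhibitor A20, was 28.3 CPM in WT, 24.8 CPM in CGN-KO (adjusted p = 0.222), 38.0 CPM in CGNL1-KO (adjusted p = 0.0157, and up to 0.0701 without CGNL1-KO replicate 3), and 19.7 CPM in double-KO cells (adjusted p = 0.0015). CSF1, a macrophage growth factor of the same list, rose instead from 4.51 CPM to 7.49, 7.68, and 6.91 CPM in the 3 lines (adjusted p = 0.00097, 0.00114, and 0.00285).

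The genes beside ACKR3 were near their WT levels. In the gene order of the RefSeq annotation of the dog assembly UU_Cfam_GSD_1.0, the 5 tested genes on each side of ACKR3 had log2 differences from WT from 0.04 to 0.69 for CGN-KO cells, from -0.11 to 0.45 for CGNL1-KO cells, and from -0.08 to 0.58 for double-KO cells. Their medians were 0.18, 0.05, and 0.17, and none of the 10 reached the log2 difference of 1 that a call needs. COPS8, directly beside ACKR3, was at 0.07, 0.09, and 0.11.

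By contrast, CX3CL1 and CCL17 were next to each other among the tested genes, and both were higher in the 3 KO lines. CIAPIN1, on the far side of CCL17, was at 0.17, 0.18, and 0.17, and PLLP, on the far side of CX3CL1, was at 0.05, -0.01, and 0.09. Farther out, CPNE2 was at 0.85, 0.57, and 0.34 and NLRC5 at -0.56, -0.55, and -0.77, so differences of the size of that of CX3CL1 were present elsewhere in this window. Of the 10 tested genes around CX3CL1, CCL17 was the 1 gene called in each line. CXCL16 and ARRB2 lay close together too, with MED11 as the single tested gene between them, and neither differed from WT by this test.

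**Figure D4:**
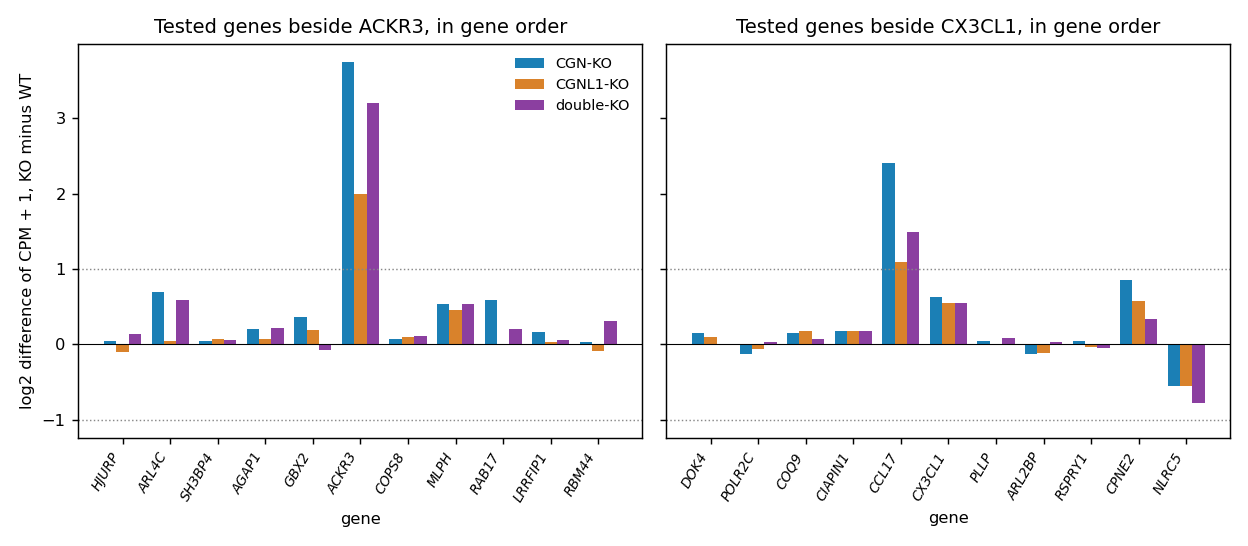
Difference in log2(CPM + 1) between each KO line and WT for the 5 tested genes on each side of ACKR3 (left) and CX3CL1 (right), in gene order on the x axis. Bars are the 3 KO lines, and dotted lines mark 2-fold. ACKR3 stands at 3.75, 1.99, and 3.21 among neighbours of at most 0.69, and CCL17 beside CX3CL1 stands at 2.41, 1.10, and 1.49.

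The genes whose pattern was most like that of ACKR3 were sought by Pearson's r of log2(CPM + 1) over the 12 libraries, which fall into 4 groups by genotype and are no independent points. EPAS1 (r = 0.987), ZPLD1 (0.987), SLC6A12 (0.985), SGK1 (0.983), and SIRT5 (0.982) ranked highest. EPAS1, which encodes an oxygen-sensitive transcription factor, was 10.4 ± 0.568 CPM in WT, 67.8 ± 7.14 CPM in CGN-KO, 36.5 ± 2.17 CPM in CGNL1-KO, and 52.8 ± 7.39 CPM in double-KO cells. SGK1, a kinase that regulates sodium transport, was 163.6, 279.9, 214, and 278 CPM in the same order of genotypes. SLC6A12, a betaine and GABA transporter, was 16.3, 61.2, 38.3, and 50.3 CPM. By Spearman's rho 1 of these 5 genes, EPAS1 (rho = 0.993), was again among the 5 highest. Of the members, CX3CL1 came closest to ACKR3 (r = 0.90, rank 184), and CXCR4, CXCL8, CXCL16, and ARRB2 had r of -0.18, -0.50, -0.47, and 0.18.

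**Figure D5:**
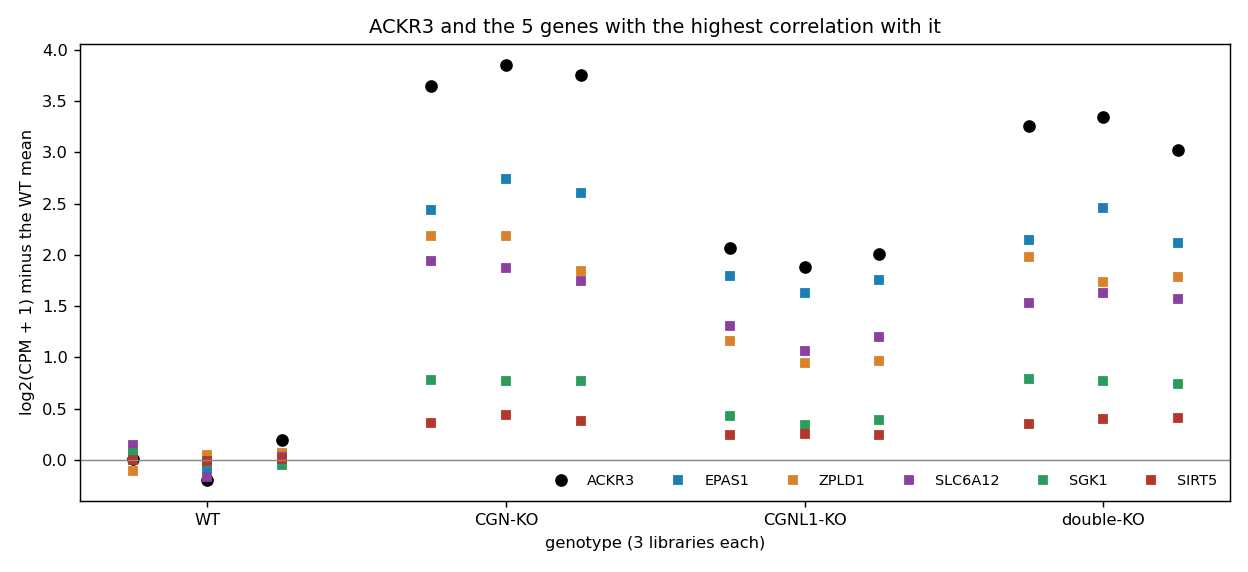
Level of ACKR3 (black circles) and of the 5 genes with the highest Pearson's r with it (squares), as log2(CPM + 1) minus the mean of the 3 WT libraries, in 12 libraries grouped by genotype on the x axis. All 6 genes are lowest in WT and lower in CGNL1-KO than in CGN-KO and double-KO cells, and ACKR3 spans the widest range.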

How the data were processed

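RNASeq of 12 MDCKII libraries was analysed. Per the labels and methods, the authors cultured cells without treatment, made stranded mRNA libraries, aligned reads with STAR 2.7.0f to CanFam3.1, and counted them per gene with HTSeq 0.9.1; the annotation and the strand setting of the counting are not given in the sources used here. The values deposited by the authors are a normalized signal in CPM for 13672 genes, 16 of them under names of date form. In every library 100% of the values were whole multiples (tolerance 0.01 reads) of what 1 read is worth, so reads were recovered. The column of 1 double-KO library carries no number and is called unnumbered.

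Genotypes were compared with limma 3.58.1 (R 4.3.3, lmFit and eBayes with trend) on log2(CPM + 1), with all 4 genotypes in 1 fit and Benjamini-Hochberg adjustment over the 12650 genes that exceeded 1 CPM in 3 or more libraries. All tests are two-sided. Alternatives were edgeR 4.0.16 and DESeq2 1.42.0 on recovered reads, pseudocounts of 0.5 and 2, no filter, library totals, 2 genotypes only, a replicate block, and leaving out each library. Nothing says what a replicate is, so p-values measure the spread between libraries, which may be technical. CGN-KO and CGNL1-KO libraries with the same number deviated together from their group means (r = 0.632, 0.475, and 0.179 across genes). The r was 0.329, 0.371, and 0.011 for WT with CGNL1-KO and 0.373, 0.318, and -0.0822 for WT with CGN-KO. With double-KO libraries it lay between -0.235 and 0.0859. At 3 libraries per group these values do not settle whether the numbers pair libraries. Fits were tested on simulated data.

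The members and gene lists were chosen with earlier results of these data known. Named were the members, the 3 genes of each list with the largest change against WT among those called in any contrast, the 5 genes most like ACKR3, and CGN and CGNL1. CCL20, CXCL10, CCL24, DPP4, GRK3, ARRDC3, GNG2, GNAZ, CLTC, AP2B1, DNM2, ADM, CSF1, TNFAIP3, and KDR were added after their values were seen. The summed level of the leukocyte markers is not reported here. Plots were made with matplotlib 3.10.9.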

Additional observations from a re-analysis of the deposited data

Results flagged for a closer look

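The results below differed between KO lines in a direct limma contrast with an adjusted p below 0.05 and at least 2-fold. Values are log2 differences, and their explanation was not tested. CGN-KO minus CGNL1-KO was 1.77 for ACKR3, 1.31 for CCL17, -1.30 for CXCL8, -1.20 for CCL20, -1.18 for BIRC3, -1.72 for MMP9, and -1.04 for MMP13. The MMP13 value did not pass without CGN-KO replicate 2 (-0.85, adjusted p = 0.0702) or without CGNL1-KO replicate 3 (adjusted p = 0.0619), and fell short of 2-fold without CGNL1-KO replicate 1 (-0.77).

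Double-KO minus CGN-KO was -1.17 for CXCR4, -1.41 for CCL2, -1.32 for CCL7, -1.18 for CCL20, and -1.57 for MMP13. Double-KO minus CGNL1-KO was 1.22 for ACKR3 and -1.74 for CXCL8. For the other ligands of the list it was -2.41 for CCL2, -2.04 for CCL7, -2.38 for CCL20, and -1.48 for CXCL10. It was -2.62 for MMP13, -2.41 for MMP9, -1.05 for BIRC3, -1.02 for NFKBIA, and -1.42 for KDR. The double-KO levels of CXCL8, CCL7, CXCL10, MMP9, and KDR rest on few reads per library. These were 7 to 23, 9 to 15, 11 to 17, 7 to 13, and 2 to 6 reads. The BIRC3 value fell just short of 2-fold without double-KO replicate 2 (-0.98), and the NFKBIA value without CGNL1-KO replicate 1 (-0.98) or the unnumbered double-KO library (-0.99).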

How the results depend on the processing

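No difference past the test changed direction under an alternative. The numbers of genes called at least 2-fold, in the order CGN-KO, CGNL1-KO, and double-KO against WT, CGN-KO against CGNL1-KO, double-KO against CGN-KO, and double-KO against CGNL1-KO, were 166, 78, 178, 82, 45, and 88. They were 307, 157, 328, 146, 118, and 194 with edgeR and 305, 157, 326, 144, 117, and 199 with DESeq2; the cause was not tested. A pseudocount of 2 gave 116 for double-KO against WT, 52 for CGN-KO against CGNL1-KO, 28 for double-KO against CGN-KO, and 52 for double-KO against CGNL1-KO, and a pseudocount of 0.5 gave 71 for double-KO against CGN-KO. Leaving out 1 library gave 152 to 175, 75 to 88, 171 to 184, 77 to 85, 37 to 58, and 81 to 111 genes, and 2873 to 4532 genes in the test across genotypes (3784 with all libraries). On the log2 scale, the pseudocount of 2 also brought below 2-fold CXCR4 and CCL7 in double-KO against CGN-KO, CXCL8, MMP9, and DPP4 in double-KO against WT, CCL20 in CGNL1-KO against WT, and CCL24 in CGN-KO against WT. Scaling by library totals alone gave 68.8 CPM for CX3CL1 in CGNL1-KO cells. Spearman's rho kept 1 of the 5 genes most like ACKR3.

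The replicate block on the 11 numbered libraries gave 166, 78, 174, 83, 39, and 87 genes called and 4480 in the test across genotypes. In CGN-KO against CGNL1-KO, where libraries of the same number deviated together most, the block changed the call of no member. The block moved CXCL16 past the test by limma in CGN-KO (-0.16, adjusted p = 0.0306) and double-KO cells (-0.23, adjusted p = 0.00725) against WT. Whether the numbers pair these libraries is not settled. Over the named genes, contrasts, and alternatives 2442 log2 differences stayed on their side of the test, 65 lost it, and 13 gained it. At 12 to 17 reads per library, as for CXCR4 in double-KO cells, or 7 to 23, as for CXCL8 there, depth limits what can be seen.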
